A study of Mus musculus with 6 samples.

Results

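The insulin-like growth factor (IGF) system was examined in whole mouse hearts that carry the FOG-2R3K5A allele. The members were 2 ligands (Igf1 and Igf2), 2 receptors (Igf1r and Igf2r) and 6 binding proteins (Igfbp2, Igfbp3, Igfbp4, Igfbp5, Igfbp6 and Igfbp7), 10 of the 18193 genes that the array annotation names singly. They were chosen by symbol, through the 28 probe sets annotated to 1 of them alone. All 10 were above the filter on dim genes, and 26 of the 28 probe sets were.

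IGF-1 and IGF-2 are secreted growth factors that signal through the tyrosine kinase encoded by Igf1r. The product of Igf2r does not signal in this way: it takes IGF-2 to the lysosome, where it is degraded. The binding proteins hold IGFs outside the cell and either store or block them, and proteases release the ligand. In the embryonic mouse heart, IGF-2 from the epicardium is known to promote division of cardiomyocytes in the compact layer.

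Hearts came from FOG-2R3K5A mutants (3 arrays, called mutants from here on) and their wild-type (WT) siblings (3 arrays), all at embryonic day 16.5. Zfpm2 encodes FOG-2, a partner protein of GATA factors in the heart, and the changed residues lie in the motif through which FOG-2 recruits NuRD, a chromatin remodelling and deacetylase complex. Per the labels' protocols, embryos of both genotypes came from crosses of double heterozygotes, and the strain background was mixed, C57/B6 and 129 S6. The labels give neither the zygosity of the mutants nor whether a replicate was 1 heart or several, and they name no promoter or Cre line that would keep the allele to the heart. The p-values reflect only how much these 6 samples varied.

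Each value is an Affymetrix probe set intensity, and differences are log2 units, mutant minus WT, each with its standard error (SE) from limma. A gene was called changed at an adjusted p under 0.05 over the 11113 genes tested. In all, 196 genes or 1.76% were called, 1.39% higher and 0.369% lower in mutants. Array medians ran from 77.4 to 84.1. The 7 cardiomyocyte markers were all above the filter, with summed levels of 16.23 to 16.25 log2 units in mutants and 16.13 to 16.20 in WT. WT replicate 1 correlated with mutant replicate 2 (0.990) more closely than with WT replicates 2 and 3 (0.982 and 0.986), so results that rest on it are given with and without it. Zfpm2 itself had a difference of 0.44 (SE 0.06, adjusted p = 0.0134), which does not check the labels, since the allele changes amino acids. Summed levels of 5 lung and airway markers were 9.38, 7.40 and 11.75 log2 units in mutant replicates 1, 2 and 3 and 7.39 to 8.11 in WT, while 2 of the 5, Nkx2-1 and Scgb1a1, were under the filter.

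FOG-2 reaches DNA through GATA factors, so the promoter windows of Igfbp5, the member that was called, and of the ligand Igf1 are shown. Igf1 was not called and was picked after its values were seen, as its mutant arrays lay above 2 of 3 WT arrays. Igf2r shared this order on its main probe set, but its window is not shown. Each window is the 250 bases before the gene's start in RefSeq's GRCm38.p6 annotation, 5′ to 3′ on the gene's strand. Matches to GATA (or TATC, the same letters on the other strand) are in capitals. The Igfbp5 window is chr1:72874866-72875115 on the minus strand and the Igf1 window chr10:87860861-87861110 on the plus strand.
Igfbp5: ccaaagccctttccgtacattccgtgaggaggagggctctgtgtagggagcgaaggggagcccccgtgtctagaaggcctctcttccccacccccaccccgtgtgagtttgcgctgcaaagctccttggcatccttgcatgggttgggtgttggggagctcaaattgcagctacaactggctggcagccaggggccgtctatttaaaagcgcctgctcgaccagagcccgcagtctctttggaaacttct
Igf1: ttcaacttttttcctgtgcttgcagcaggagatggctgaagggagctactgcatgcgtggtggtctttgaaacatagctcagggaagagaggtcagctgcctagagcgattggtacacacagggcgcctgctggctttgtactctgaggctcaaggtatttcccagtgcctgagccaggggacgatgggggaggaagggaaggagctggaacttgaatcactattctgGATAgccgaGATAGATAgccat
The Igfbp5 window held 0 matches and the Igf1 window 3, which do not overlap, all close to the start of the gene. Of the windows not shown, that of Igfbp6 also held 3 and that of Igf2r held 0. Of 32851 windows of this length over all RefSeq genes, 53.6% held at least 1 match and 9.62% at least 3. All 10 members had a window, 14 windows in all, and 5 of the 14 held a match, 1 window each of Igf1, Igf2, Igfbp2, Igfbp3 and Igfbp6. A match is a run of letters and says nothing of whether a factor binds there.

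Of the 10 members 1 was called, Igfbp5, which was higher in mutants, against 1.76% of all genes tested. The other 9 had an unadjusted p above 0.05 too. The 10 differences had a median of 0.08, with 7 positive and 3 negative, and ran from -0.47 (Igfbp2) to 0.40 (Igfbp6). Over all genes tested the median was -0.01. The genotypes did not overlap for 1 of the 10 members, again Igfbp5, against 21.2% of all genes tested. As hearts were measured whole, a change in the number of cells of a type and a change in RNA per cell cannot be told apart.

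**Figure D1:**
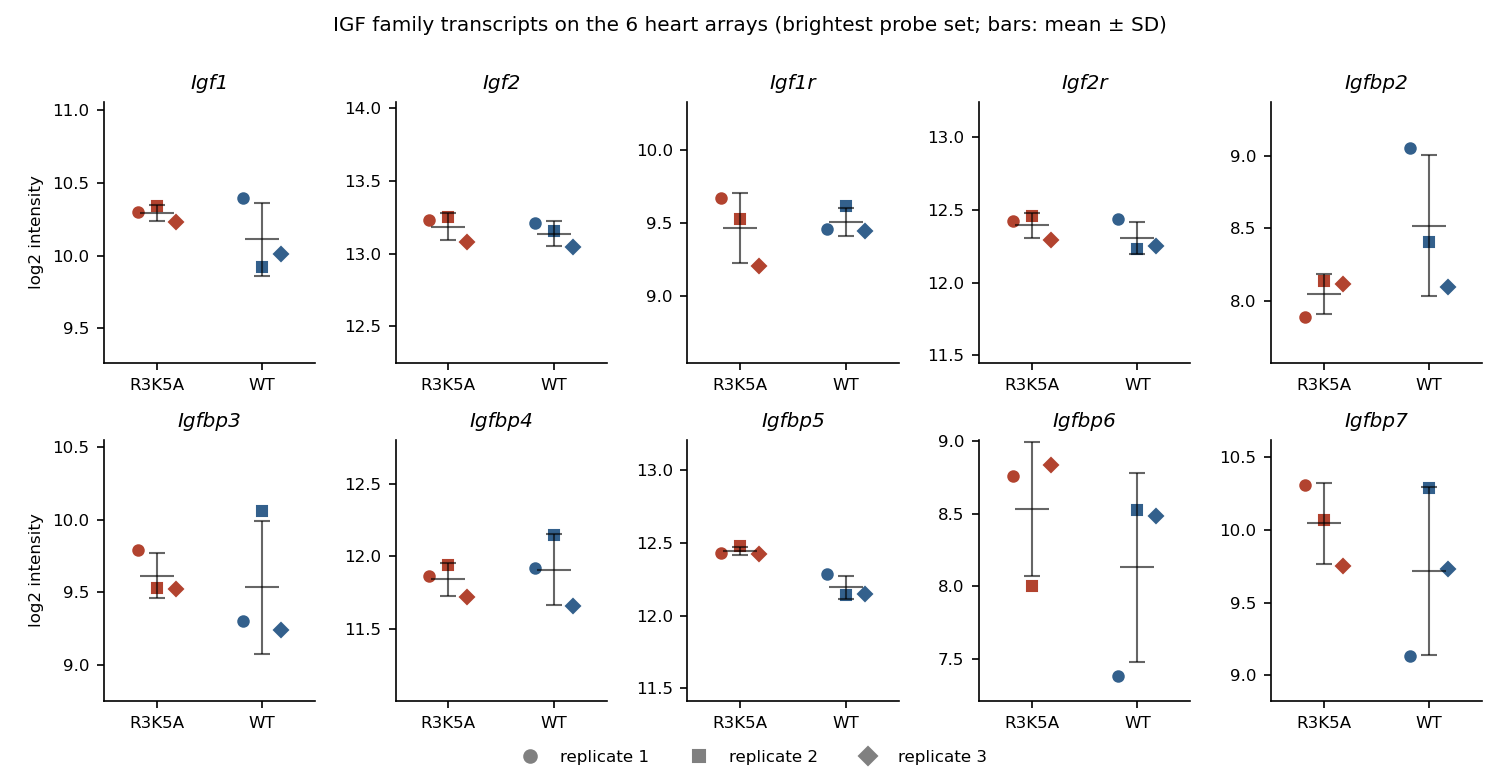
Log2 intensity of the brightest probe set of each IGF family gene on the 6 arrays (symbols mark replicates, bars the mean ± SD of 3), with mutants (R3K5A) left and WT right; every panel spans the same number of log2 units. The genotypes are apart for Igfbp5 only, and WT replicate 1 is the highest WT array for Igf1 and Igfbp2 and the lowest for Igfbp6 and Igfbp7.

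Among the ligands, Igf1 read 1264, 1296 and 1202 in mutant replicates 1, 2 and 3, against 1350, 971 and 1034 in WT replicates 1, 2 and 3. The mutant arrays lay close together and above WT replicates 2 and 3, but below WT replicate 1, so the genotypes overlapped. The means were 10.29 ± 0.06 log2 units in mutants and 10.11 ± 0.25 in WT (SD, n = 3 each), and the difference of 0.18 (SE 0.12, 95% interval -0.08 to 0.44) did not pass (adjusted p = 0.505). The same order was seen on 4 of 4 Igf1 probe sets: all mutants above WT replicates 2 and 3, and WT replicate 1 above both of these. The probe sets gave 0.18, 0.26, 0.39 and 0.44, from the brightest to the dimmest, and 0 of the 4 passed in limma (adjusted p = 0.370 to 0.528 over all probe sets). Unadjusted, 0 of the 4 were under 0.05 either.

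Leaving out WT replicate 1 moved the Igf1 difference to 0.32 (SE 0.08, 1.25-fold), which still did not pass over all genes (adjusted p = 0.0654). Without that array 4.06% of all genes were called, against 1.76% with it. WT replicate 1 was singled out for its likeness to a mutant array, so a pass in this fit is no added support for a change. The dimmest Igf1 probe set, at 353, 361 and 381 in mutants against 393, 200.2 and 249.7 in WT, then differed by 0.71 and passed over all probe sets (adjusted p = 0.0348, where 2.52% of all probe sets were called). The other Igf1 probe sets did not pass in that fit (adjusted p = 0.0668 to 0.0830). Leaving out WT replicate 2 moved the Igf1 difference the other way, to 0.09 (adjusted p = 0.807), so its size depended on more than 1 WT array.

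Igf2, which is expressed from the paternal copy in the mouse embryo, read 9606, 9745 and 8642 in mutants, against 9468, 9142 and 8436 in WT. Replicate 3 was the lowest in both genotypes and the ranges overlapped widely. The difference was 0.05 (SE 0.06, 95% interval -0.08 to 0.18), so the interval allows at most a small rise or fall on this probe set. Its readings were close to those of the cardiomyocyte marker Myl7 (8774 to 10056). Whether differences are compressed at such high intensities was not tested. A dimmer Igf2 probe set had 0.09 with a wider interval (-0.31 to 0.50).

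For the signalling receptor, Igf1r read 815, 739.8 and 589 in mutants and 705, 786 and 698 in WT. Mutant replicates 1 and 3 were the highest and the lowest of the 6 arrays. The difference was -0.04 (SE 0.12, 95% interval -0.32 to 0.23), and it turned to 0.0003 when each array was centred on its median. The 4 Igf1r probe sets above the filter ran from -0.04 to 0.02, with 3 negative and 1 positive.

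The clearance receptor Igf2r read 5491, 5633 and 5029 in mutants, against 5542, 4809 and 4888 in WT. As for Igf1, mutants were above WT replicates 2 and 3 while WT replicate 1 was within the mutant range. The difference was 0.09 (SE 0.07, 95% interval -0.07 to 0.24), or 0.15 without WT replicate 1 (adjusted p = 0.188). A further Igf2r probe set, at 4820, 4454 and 4616 in mutants against 4423, 4683 and 4561 in WT, did not show this order of arrays. It gave 0.02, or 0.002 without WT replicate 1. A probe set annotated to both Igf2r and Airn was left out.

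**Figure D2:**
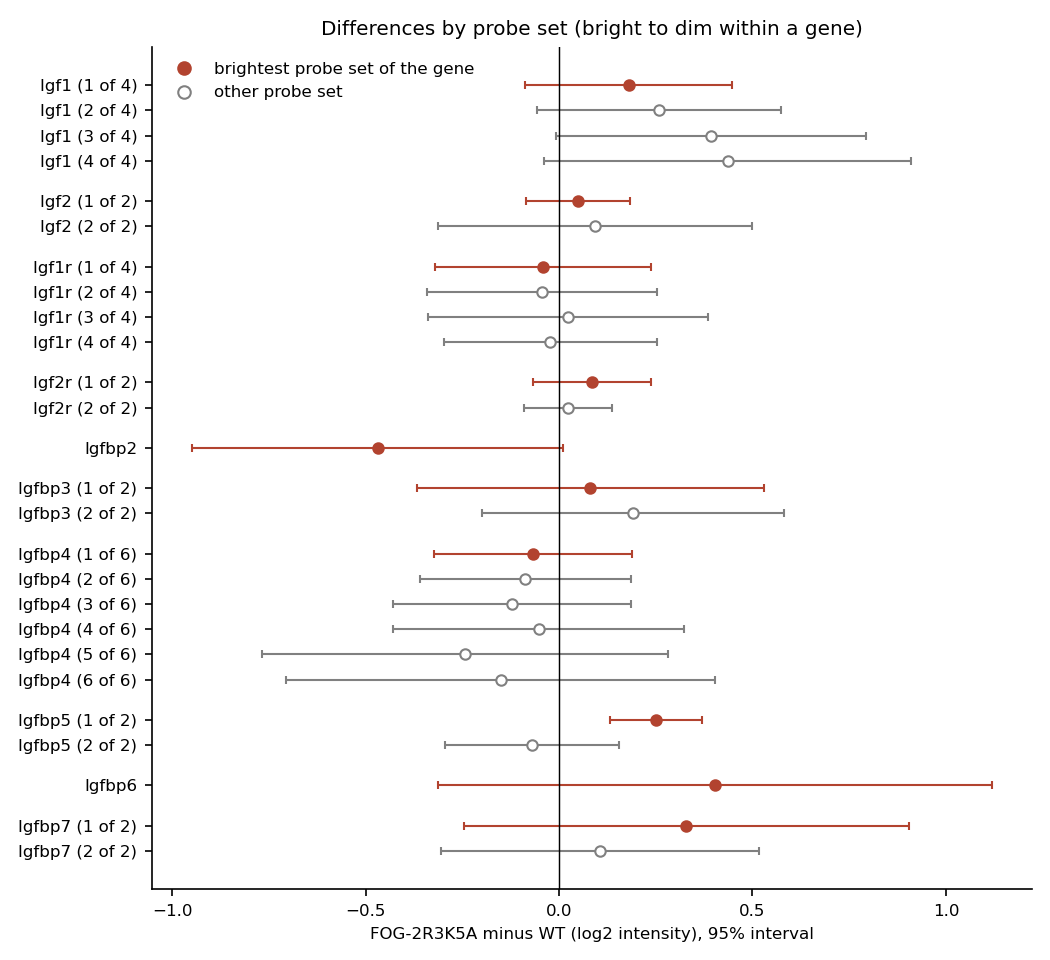
Mutant minus WT difference of each of the 26 probe sets above the filter (points) with its 95% interval from limma over all probe sets, grouped by gene and ordered from bright to dim within a gene. The 4 Igf1 probe sets lie right of 0 and the 6 Igfbp4 probe sets left of it, while the 2 Igfbp5 probe sets lie on opposite sides.

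Igfbp5, a binding protein that also attaches to extracellular matrix, read 5529.55, 5699 and 5492 in mutants, against 4994, 4526 and 4549 in WT. Every mutant array was above every WT array, and the mutants lay within a narrow range. The means were 12.44 ± 0.03 log2 units in mutants and 12.19 ± 0.08 in WT (SD, n = 3 each). The difference was 0.25 (SE 0.05, 1.19-fold, 95% interval 0.13 to 0.37), just past the threshold (adjusted p = 0.0489). Of all genes tested, 16.6% had a larger absolute difference, so the call comes with a small change and a small spread.

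The 2 Igfbp5 probe sets disagreed. The values above are from 1452114_s_at, the brighter one, whose suffix marks probes that several transcripts share. The dimmer one, 1422313_a_at, read 958, 1091 and 1067 in mutants and 1119.86, 1199.73 and 959.73 in WT. On it the genotypes overlapped and the difference was -0.07 (SE 0.10, 95% interval -0.30 to 0.16). The log2 ratio of the brighter to the dimmer probe set within an array was 2.53, 2.39 and 2.36 in mutants, against 2.16, 1.92 and 2.24 in WT. These ratios did not overlap and differed by 0.32 (exact permutation test over the 6 arrays, two-sided p = 0.1, the smallest this design can give). This design cannot reach 0.05, and the ratio was looked at with the disagreement known, so it describes these arrays and does not show which probe set follows the gene. In a fit of all probe sets one by one, where 0.99% were called, the brighter Igfbp5 probe set had an adjusted p of 0.0668.

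Of 15 alternative settings, the Igfbp5 difference stayed positive in 15 and past the threshold in 3 (adjusted p = 0.0159 to 0.537). Without WT replicate 1 it was 0.30 (adjusted p = 0.0159), and without any other array it was 0.23 to 0.26 and not called. The mean over its probe sets gave 0.09 (adjusted p = 0.537).

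Some markers of other cell types in the heart moved beside Igfbp5. Over all genes tested, 1.39% were called higher, 0.369% lower, and 14.7% had an unadjusted p under 0.05. Of 10 epicardial markers 5 were called higher, with summed levels of 12.94 to 13.03 log2 units in mutants and 12.63 to 12.73 in WT. The called ones were keratins and mesothelial surface genes, while 4 of the 10 had negative differences: Wt1 (-0.06), Tbx18 (-0.11), Tcf21 (-0.09) and Aldh1a2 (-0.22). Of 9 fibroblast, valve and matrix markers 2 were called higher (15.15 to 15.24 in mutants, 15.00 to 15.11 in WT), and of 8 endothelial and endocardial markers 1 (13.55 to 13.60 in mutants, 13.37 to 13.53 in WT). Of 7 cardiomyocyte markers 0 were called by limma, and 3 had an unadjusted p under 0.05. None of the markers in these 4 lists was at 0 or under the filter. Of 6 skeletal muscle markers 2 were tested, and both were called lower (Tnni2 at -1.04 and Casq1 at -0.41). Summed levels were 10.38 to 10.65 in mutants and 10.92 to 10.98 in WT. Under the filter, Myog (0.38) and Myod1 (0.42) had positive differences, and Myh3 (-0.07) and Actn3 (-0.49) negative ones. Neural markers summed to 9.60 to 9.86 in mutants and 8.96 to 9.44 in WT, with 0 of 1 tested called. Of 5 tested macrophage markers 0 were called by limma, 3 had an unadjusted p under 0.05, and the median difference was 0.40 (summed levels 10.70 to 10.93 in mutants, 10.33 to 10.72 in WT). Of 5 tested smooth muscle and mural markers 0 were called by limma, 1 had an unadjusted p under 0.05, and the median difference was 0.04. Their summed levels overlapped (13.77 to 13.89 in mutants, 13.77 to 13.80 in WT). The part of these cell types in the Igfbp5 difference was not tested.

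The 3 tested genes whose pattern over the 6 arrays was closest to that of Igfbp5 were Clca3a1, of the calcium-activated chloride channel regulator family, Gyg, the primer of glycogen synthesis, and Rpn2, a subunit of oligosaccharyltransferase. Their root mean square distances from Igfbp5, after each gene was centred on its mean, were 0.016, 0.016 and 0.020 log2 units among 10781 genes compared. Their differences were 0.26 (Clca3a1), 0.26 (Gyg) and 0.26 (Rpn2), and Gyg alone of these was called (adjusted p = 0.0380). As these genes were picked by their pattern over both genotypes, differences near that of Igfbp5 follow from the choice.

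Igfbp2, a binding protein abundant in fetal tissues, read 238, 282 and 278 in mutants, against 531, 339 and 274 in WT. WT replicate 1 was far above the rest, while WT replicate 3 lay within the mutant range. The difference of -0.47 (SE 0.21, 95% interval -0.95 to 0.01) was the most negative of the family and did not pass (adjusted p = 0.348), and without WT replicate 1 it was -0.20 (SE 0.13), against -0.68 without WT replicate 3 (adjusted p = 0.192).

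Igfbp3, the main IGF carrier in adult blood, read 889, 739 and 736 in mutants and 631, 1068 and 606 in WT. WT replicate 2 was the highest of the 6 arrays and the other two WT arrays were the lowest. The difference was 0.08 (SE 0.20, 95% interval -0.36 to 0.53), and it ran from -0.06 without WT replicate 3 to 0.34 without WT replicate 2. A further Igfbp3 probe set gave 0.19.

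Igfbp4, which holds IGFs away from the receptor until it is cleaved by the protease PAPP-A, read 3727, 3934 and 3368 in mutants, against 3875, 4536 and 3232 in WT. The mutants lay within the WT range. On 6 of 6 Igfbp4 probe sets WT replicate 2 was the highest array, and all 6 differences were negative, from -0.24 to -0.05, with adjusted p of 0.669 to 0.914 over all probe sets. On the main probe set the difference was -0.07 (SE 0.11, 95% interval -0.32 to 0.19) and turned to 0.05 without WT replicate 2.

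Igfbp6, which prefers IGF-2, read 433, 257 and 458 in mutants and 167, 369 and 359 in WT. Igfbp7, a secreted protein of vessels with low affinity for IGFs, read 1269, 1076 and 864 in mutants and 562, 1249 and 848 in WT. For both genes WT replicate 1 was the lowest of the 6 arrays and the genotypes overlapped. The differences were 0.40 (SE 0.32, 95% interval -0.31 to 1.12) for Igfbp6 and 0.33 (SE 0.25, 95% interval -0.24 to 0.90) for Igfbp7, with adjusted p of 0.583 and 0.577. Without WT replicate 1 they were 0.03 (Igfbp6) and 0.04 (Igfbp7). Other arrays moved them the other way: without mutant replicate 2 Igfbp6 had 0.67 (adjusted p = 0.484), and without WT replicate 2 Igfbp7 had 0.61 (adjusted p = 0.261). Within mutants, Igfbp6 was lowest in replicate 2, the array on which the summed lung and airway level was also lowest. The sums in replicates 1 and 3 came mostly from Scgb3a2 (522, 29.3 and 2631 in mutant replicates 1, 2 and 3). Of the other tested lung markers, Sftpc was also lowest in replicate 2, but Sftpb in replicate 1. A part of such tissue in the Igfbp6 values was not tested.

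**Figure D3:**
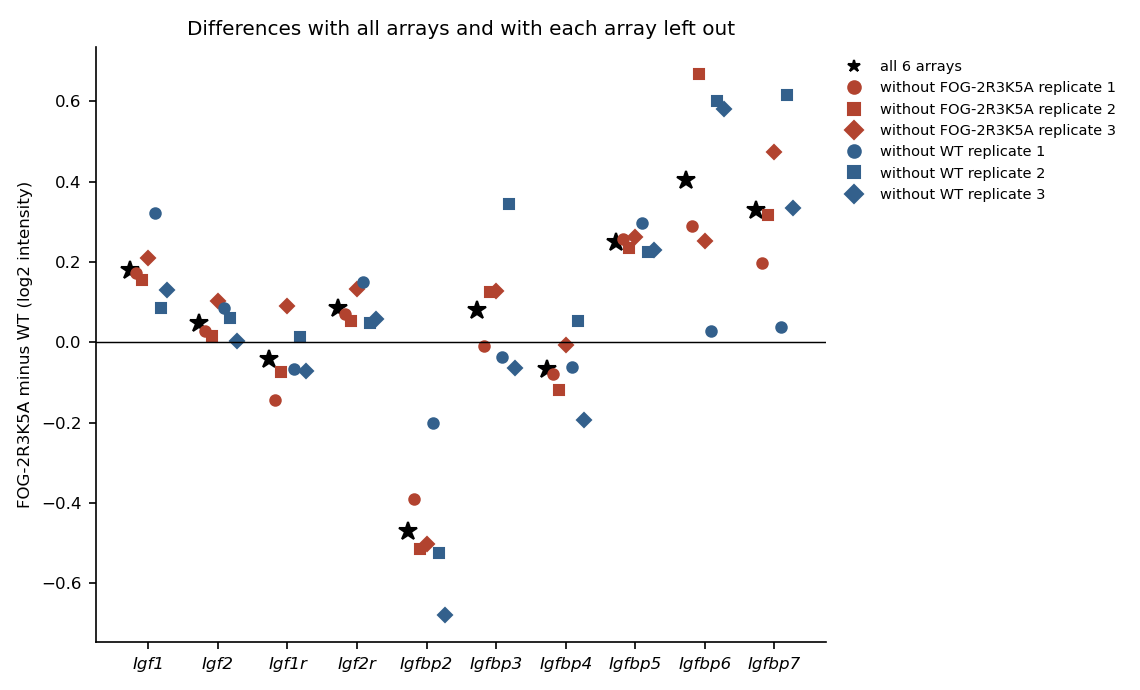
Mutant minus WT difference of each member with all 6 arrays (star) and with each array left out (red, a mutant array; blue, a WT array). Igfbp5 stays between 0.23 and 0.30, while Igf1 runs from 0.09 (without WT replicate 2) to 0.32 (without WT replicate 1), Igfbp2 from -0.68 to -0.20, Igfbp6 from 0.03 to 0.67 and Igfbp7 from 0.04 to 0.61.

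The spread within WT was larger than within mutants for 8 of 10 members, and for 67% of all genes tested. WT replicate 1 was the highest of the 6 arrays for Igf1 and Igfbp2 and the lowest for Igfbp6 and Igfbp7. WT replicate 2 was the highest for Igfbp3 and Igfbp4. Within WT, Igfbp3, Igfbp4, Igfbp6 and Igfbp7 were each highest in replicate 2, and Igfbp2 and Igfbp5 in replicate 1.

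Among the other genes of the pathway, 43 were listed and 32 tested. Of these 2 were called, Htra1 and Pik3cb, both higher in mutants, against 1.39% called higher among all genes tested. The median of the 32 differences was -0.02, with 13 positive and 19 negative. The genotypes did not overlap for 10 genes, 7 higher in mutants, against 11.5% higher among all genes, and 3 lower, against 9.76%.

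Htra1 encodes a secreted serine protease that can cleave binding proteins, Igfbp5 among them. It read 1252.5, 1167 and 1128 in mutants, against 754, 878 and 813 in WT, with every mutant above every WT array. The difference was 0.54 (SE 0.08, 1.45-fold, adjusted p = 0.0179), and 0.48 without WT replicate 1 (adjusted p = 0.0260). It was called in 11 of 15 alternative settings (adjusted p = 0.0100 to 0.123), and not without mutant replicate 1, 2 or 3 or WT replicate 3, where it was 0.50 to 0.57. Its other probe set moved the same way, at 629, 556 and 856 in mutants against 392, 378 and 439 in WT (a difference of 0.73). In the fit of all probe sets the brighter one was called (adjusted p = 0.0278) and the other one was not (adjusted p = 0.0659). The other proteases and protease inhibitors were not called. Adamts1, a matrix protease, had 0.16 with genotypes that did not overlap, Pappa2, a relative of PAPP-A, -0.17, Adam12 -0.02, and the stanniocalcins Stc1 and Stc2, which inhibit PAPP-A, 0.21 and -0.28.

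Pik3cb, a catalytic subunit of PI3 kinase, read 164, 156 and 142 in mutants, against 109.73, 73.4 and 82.9 in WT, where 1 array was below the filter level of 78.9. The difference was 0.82 (SE 0.17, 1.76-fold, adjusted p = 0.0467). Only 1 probe set read this gene, which was called in 6 of the 14 alternative settings that tested it (adjusted p = 0.0125 to 0.225). With 1 array left out it was called only without WT replicate 1, at 0.98. In the fit of all probe sets its adjusted p was 0.0591. Of the 16 tested genes from PI3 kinase to mTOR, 7 had positive differences and 9 negative. Foxo3, a transcription factor held out of the nucleus when the pathway is active, had 0.39 (adjusted p = 0.186) and Pik3r1, a regulatory subunit of PI3 kinase, 0.22 (adjusted p = 0.287). The kinases Akt1, Akt2 and Mtor had -0.11, -0.16 and -0.12, and Tsc1 and Tsc2, whose products hold mTOR complex 1 in check, -0.19 and -0.17, with no call.

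Of 7 tested receptors and adaptors 0 were called by limma, and 1, Grb14, had an unadjusted p under 0.05, against 14.7% of all genes tested. Grb14, an adaptor that inhibits the insulin receptor, had 0.18 with genotypes that did not overlap (adjusted p = 0.334), and Irs1, the docking protein of the IGF and insulin receptors, 0.08 (adjusted p = 0.626). The insulin receptor gene Insr had -0.04 and the imprinted adaptor gene Grb10 -0.03. Of genes that act on Igf2 mRNA, Igf2bp3 had -0.15 (SE 0.09) and Igf2bp1 0.08. Igfbpl1 had -0.02, and Igfbp1, Igfals and Pappa were under the filter.

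**Figure D4:**
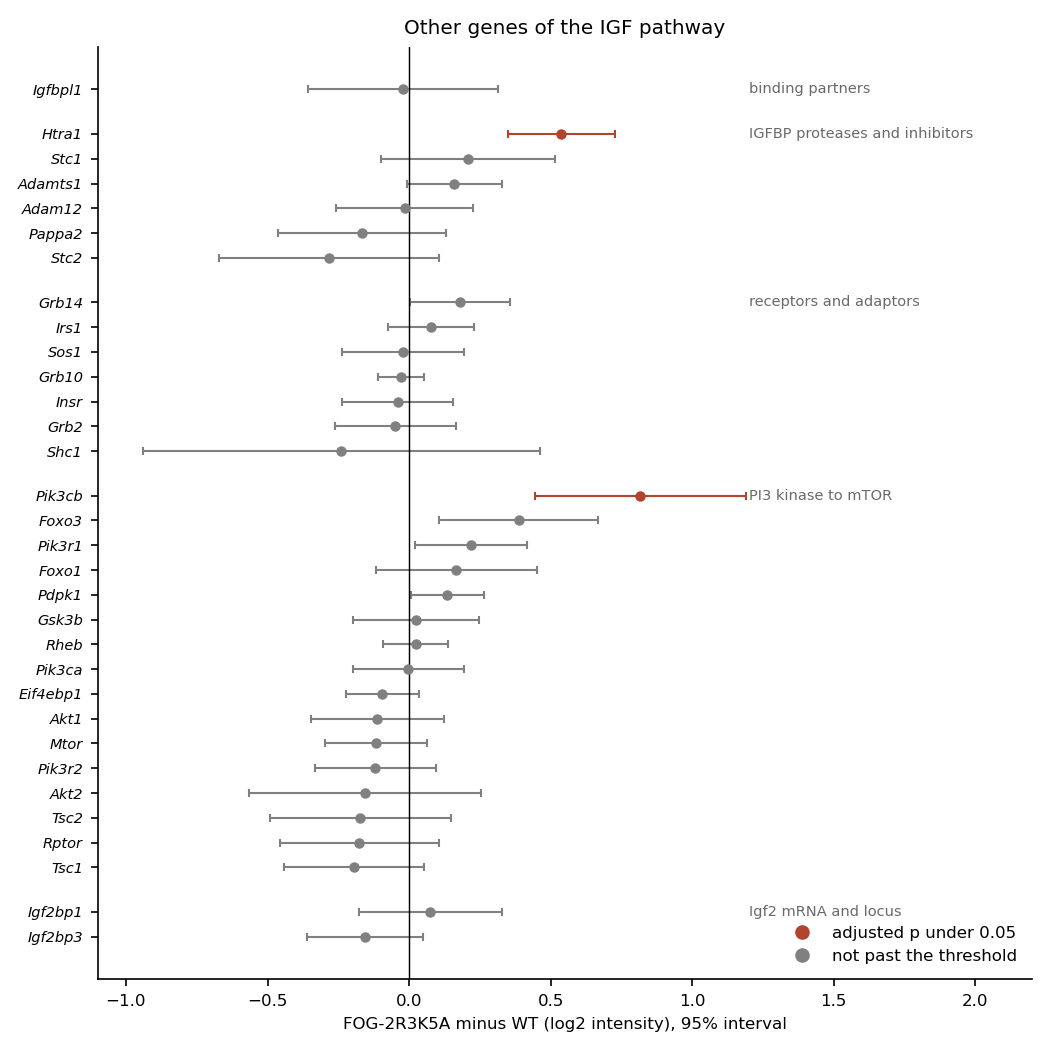
Mutant minus WT difference of the 32 tested pathway genes outside the family, with 95% intervals from limma over all genes, grouped by role. Htra1 (0.54) and Pik3cb (0.82) are the called genes.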

How the data were processed

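RNA of whole hearts was hybridised to 6 one-colour Affymetrix arrays, 3 per genotype. The deposited intensities are on a linear scale, 1 per probe set. Array medians lay within 0.121 log2 units, and the values were used as deposited. Neither a normalization by the authors nor the software is given in the sources used here. Detection calls were not used. Precision is limited by the number of arrays. Intensities were floored at 1 and log2-transformed. Each of 18193 genes, from probe sets with 1 symbol, was represented by its brightest probe set, and 11113 genes with a mean above the median probe set (6.30 log2 units, intensity 78.9) were tested with limma 3.58.1 in R 4.3.3 (intensity trend, two-sided, Benjamini-Hochberg adjustment over all genes tested). All 22518 probe sets above that level were also fitted one by one. The fit was tested on simulated data. Figures were drawn with matplotlib 3.10.9. Named genes are the 10 members, the called genes of the pathway list or otherwise those with the smallest p, and the 3 genes closest to Igfbp5 in pattern. Other pathway genes named were chosen after their values were seen. Members, lists and tests were chosen with earlier results of these data known. Of the 43 pathway genes listed, 5 had no probe set with a single symbol and were not analysed here. Symbols came from the platform annotation, checked by gene identifier against GRCm38.p6 (0 updated). Promoter sequences are RefSeq's. Samples were not treated as paired by replicate number in the main fit. Correlations of deviations were -0.06, 0.13 and 0.41 within a number, the last the highest of all pairs, and -0.32 to 0.25 between numbers. Whether samples of a number share a batch was not tested. Alternatives covered the normalization, offset, filter, probe sets, variance model, replicate block, Xist level and each array left out.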

Additional observations from a re-analysis of the deposited data

How the results depend on the processing

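The count of 196 changed genes became 81 without a filter, 119 without the intensity trend and 43 with the Xist level as a covariate, and 37 (without mutant replicate 1) to 451 (without WT replicate 1) with 1 array left out. The count of 1 changed IGF member became 0 with quantile normalization, median centring, no filter, the mean over probe sets, no intensity trend, the replicate block or the Xist covariate, and was 0 to 1 with 1 array left out. In these settings the Igfbp5 difference was 0.23 (quantile), 0.29 (centring), 0.25 (no filter, no trend, block), 0.09 (mean over probe sets) and 0.24 (Xist). The count of 2 changed pathway genes became 1 without a filter, with a stricter filter, without the trend and with the Xist covariate, and 0 to 2 with 1 array left out. With all probe sets fitted one by one the brighter Igfbp5 probe set gave 0.25 (adjusted p = 0.0668) and the dimmer -0.070. Differences that turned sign, none of them called, were those of Igf1r (0.00031 with centring, 0.11 with the Xist covariate, and -0.14 to 0.092 with 1 array left out), Igfbp3 (-0.065 without WT replicate 3 to 0.34 without WT replicate 2) and Igfbp4 (-0.19 without WT replicate 3 to 0.052 without WT replicate 2). With the Xist covariate the Igfbp2 difference moved from -0.47 to -0.66 (adjusted p = 0.328) and the Igfbp7 difference from 0.33 to 0.62 (adjusted p = 0.385). Neither was called. The cause of these changes was not tested. The replicate block ended the Igfbp5 call (adjusted p = 0.0578), and samples of 1 number did not always correlate best with each other. With 3 arrays a group, differences as small as that of Igfbp5 lie at the edge of what passes, and no detection call or signal over background was used.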
